A study of Mus musculus with 10 samples.

Results

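The cardiac lineage transcription factors are the DNA-binding proteins that direct heart cells in the embryo and stay on in the adult heart. Here they were taken as a set of 10 genes, named by symbol: Gata4, Gata6, Nkx2-5, Tbx5, Tbx20, Hand1, Hand2, Mef2a, Mef2c and Mef2d. All 10 were among the 56748 gene identifiers of the count tables, and 9 of them had enough reads to be among the 15454 genes tested. RNA came from whole hearts of wild-type male C57BL/6 mice, bought at 8 weeks of age, with 1 directional poly-A library per heart. The 5 training hearts were from mice forced to run on a small-animal treadmill at 15 m/min for 120 min a day, 5 days a week, for 8 weeks. The 5 sedentary hearts were from mice of the same age that did not train. Neither group carried an engineered allele. Per the study's methods, every mouse of both arms was scanned by PET/CT under isoflurane at its time point. The atria were left on the hearts, so every value below is an average over all chambers and cell types.

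GATA4 and GATA6 are zinc finger proteins that bind GATA motifs, NKX2-5 is a homeodomain protein, TBX5 and TBX20 carry a T-box, HAND1 and HAND2 are basic helix-loop-helix proteins that bind E-boxes, and the MEF2 proteins carry a MADS box. They bind to the enhancers of sarcomere, ion channel and natriuretic peptide genes, often several together, and many of them bind to each other's genes. In the adult heart TBX5 is known for its role in the atria and the conduction system, HAND2 for the right ventricle and outflow tract of the embryo, and GATA4 and the MEF2 proteins for transcribing the genes of hypertrophic growth.

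Because these factors bind near each other's genes, the 250 bases before the start of each gene's canonical transcript were read from the GRCm39 genome. The GATA words AGATAA and TGATAA were searched on both strands. At least 1 of the words was in the window of 4 of the 10 genes, Hand2, Mef2c and Mef2d among them, against 11.4% of 13562 windows of tested genes. Hand2 was the only member with both words, which 0.619% of those windows had. The windows of these 3 named genes are shown 5′ to 3′ on the strand of the gene, with the GATA words in capitals (TTATCT and TTATCA are the words read on the other strand). The Hand2 window is chr8:57773761-57774010 (plus strand), that of Mef2c chr13:83672170-83672419 (plus strand) and that of Mef2d chr3:88049382-88049631 (plus strand).
Hand2: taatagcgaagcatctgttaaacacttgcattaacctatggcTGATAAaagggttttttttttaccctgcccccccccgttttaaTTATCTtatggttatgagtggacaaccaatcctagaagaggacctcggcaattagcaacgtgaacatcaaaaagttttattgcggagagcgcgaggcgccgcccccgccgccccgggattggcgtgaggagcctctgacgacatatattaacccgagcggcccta
Mef2c: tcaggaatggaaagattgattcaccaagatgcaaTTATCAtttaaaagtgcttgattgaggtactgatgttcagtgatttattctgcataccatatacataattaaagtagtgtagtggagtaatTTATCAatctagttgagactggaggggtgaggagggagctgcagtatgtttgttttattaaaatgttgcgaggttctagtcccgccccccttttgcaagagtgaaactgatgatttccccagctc
Mef2d: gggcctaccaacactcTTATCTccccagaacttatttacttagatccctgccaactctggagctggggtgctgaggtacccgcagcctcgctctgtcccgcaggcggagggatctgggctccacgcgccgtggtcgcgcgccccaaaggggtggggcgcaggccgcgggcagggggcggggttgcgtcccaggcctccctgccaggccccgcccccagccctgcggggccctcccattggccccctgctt

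In the Hand2 window the TGATAA word began 208 bases and the AGATAA word 165 bases before the start. The AGATAA word of Mef2d began 234 bases before the start, and the TGATAA words of Mef2c began 216 and 125 bases before it. The NKX2-5 word AAGTG was in the windows of Tbx5, Hand2 and Mef2c, against 39.04% of all windows. The E-box CANNTG was in 3 windows, those of Hand2 and Nkx2-5 among them, against 60.4%, and in Hand2 the E-box that begins 228 bases before the start overlaps its AAGTG word. The T-box word GGTGTGA (2.92% of all windows) and the MEF2 word CTANNNNTAG (3.03%) were in none of the 10 windows. The GC content of the windows ran from 39.2% in Mef2c to 70.4% in Mef2d, against a median of 56.8% over all windows. Hand2, at 49.2%, was also below that median. The shares of all windows given above, those of the GATA words included, were not matched for GC content. A match of letters is a description of these windows and not a measured binding site.

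The libraries held 29461697 to 35945417 counts on genes in the training hearts and 35196993 to 39431030 in the sedentary hearts, fewer in training (exact two-sided permutation test, p = 0.0238, smallest possible p 0.00794). Hearts also differed in the level of atrial markers. The summed level of 11 atrial markers (Nppa, Myl4, Myl7, Sln and others) was 6226 to 8889 CPM (counts scaled to a common library size) in the training hearts and 3758 to 8282 CPM in the sedentary hearts, with sedentary hearts 2 (3758 CPM) and 5 (3877 CPM) the lowest. All 11 markers had a log2 fold change above 0, and 3 of them (Dkk3, Sln and Stard10) were called higher. Ventricular markers were present beside them, as the label whole heart has it, and 6 of them summed to 7748 to 9529 CPM in training and 7724 to 10001 CPM in sedentary hearts. Across all genes, 1084 of the 15454 tested (7.01%) were called at a false discovery rate (FDR) below 0.1 by the quasi-likelihood test of edgeR after Benjamini-Hochberg adjustment, 425 higher and 659 lower in training hearts. CPM use library sizes corrected by edgeR's TMM factors, and every fold change is training against sedentary on the log2 scale.

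Of the 9 tested factors 1 was called, Hand2, which was lower in the training hearts. A single call among 9 genes is near the share of 7.01% over all tested genes. The other 8 missed the threshold, with 6 of the 9 log2 fold changes above 0 and 3 below, and a median of 0.050 against 0.00026 over all tested genes. The 95% intervals of the 9 genes together ran from −0.35 to 0.48. Hand2 was also the only tested factor whose training and sedentary hearts did not overlap in CPM, which was the case for 5.06% of all tested genes. At an unadjusted p below 0.05, which 20% of all tested genes reached, Gata6 joined Hand2.

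**Figure D1:**
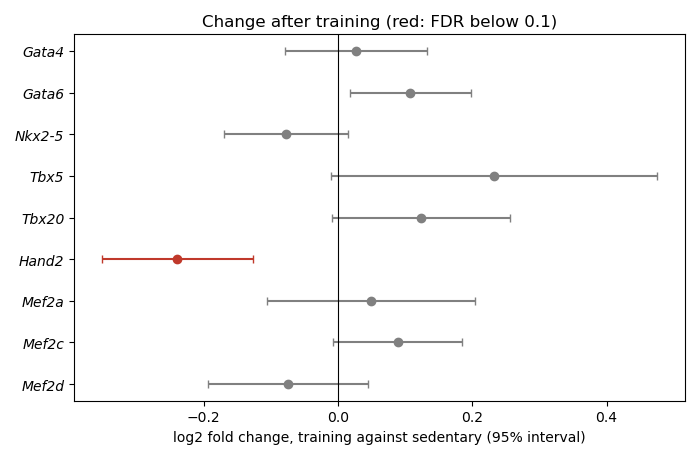
Log2 fold change, training over sedentary, of the 9 tested factors (points), with 95% intervals of edgeR's fit (bars) and red for an FDR below 0.1. Only the intervals of Hand2, from −0.35 to −0.13, and of Gata6, from 0.018 to 0.20, leave out 0, and only Hand2 passed the FDR.

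The coefficient of variation between hearts of a group ran from 2.78% for Nkx2-5 in sedentary hearts to 19.8% for Tbx5 in sedentary hearts, whereas counting noise alone gives 1.18% to 2.42%. The gap was narrowest for Nkx2-5 in sedentary hearts, at 2.78% against 2.18%. The errors below are those between hearts.

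Hand2 (ENSMUSG00000038193, chromosome 8 of GRCm39, 57774011 to 57777677, plus strand) encodes the HAND factor of the second heart field. It was at 45.5, 48.0, 43.7, 43.2 and 41.0 CPM in training hearts 1 to 5 and at 48.1, 56.7, 51.7, 52.4 and 52.4 CPM in sedentary hearts 1 to 5. All 5 training hearts were below all 5 sedentary hearts, by a narrow margin between training heart 2 and sedentary heart 1. The means were 44.3 ± 2.64 CPM (SD, n = 5) and 52.3 ± 3.07 CPM (SD, n = 5), a log2 fold change of −0.24 (standard error 0.052, edgeR quasi-likelihood FDR 0.0292). Hand2 thus fell by 15.3% in training hearts (95% interval −21.6% to −8.40%). In the TPM values (transcript levels per length) that the authors deposited from RSEM, which carry no TMM factor, Hand2 was 20.01 to 22.86 in training and 22.46 to 24.66 in sedentary hearts, and here the groups overlapped at training heart 2.

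The Hand2 call did not hold in the fits that took the atrial markers into account. With an atrial score as a covariate, the mean of the centred log2 CPM of the same 11 markers in each heart, its log2 fold change was −0.16 (edgeR quasi-likelihood FDR 0.330), in a fit that called 20 genes higher and 88 lower over all genes. Without sedentary hearts 2 and 5, an alternative chosen after the values were seen, it was −0.19 (edgeR quasi-likelihood FDR 0.152), with 175 genes called lower over all genes in place of 659. Marker sums of other cell types were described and not tested. Those of cardiomyocytes did not overlap between the groups, whereas those of fibroblasts and autonomic neurons did. The summed cardiomyocyte markers were at 67918 to 71910 CPM in training and 72046 to 81198 CPM in sedentary hearts, all 10 with a log2 fold change below 0 and 2 called lower (Actc1 and Ckm). The 10 fibroblast markers summed to 3171 to 4167 CPM in training and 2874 to 3328 CPM in sedentary hearts, with Gsn, Pdgfra and Lum called higher. Markers of autonomic neurons other than Hand2 summed to 5.38 to 10.5 CPM in training and 3.57 to 6.91 CPM in sedentary hearts, and Chrna3, Th, Slc18a3 and Chat were too low to be tested. In whole hearts fewer cells of a type and less RNA per cell cannot be told apart, and the part of the cardiomyocyte, fibroblast and neuron markers in the Hand2 result was not tested.

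The Hand2 locus is crowded with transcripts of the opposite strand. Hand2os1, a long noncoding RNA on the minus strand whose gene spans Hand2 (chromosome 8, 57734152 to 57782056), was at 55.9 ± 3.36 CPM in training and 61.4 ± 4.42 CPM in sedentary hearts (SD, n = 5 each). Its log2 fold change of −0.14 had an edgeR quasi-likelihood FDR of 0.196, and 2 of the 5 training hearts were below all sedentary hearts. Gm34030, which overlaps the end of Hand2 on the same opposite strand, had a log2 fold change of −0.29 (edgeR quasi-likelihood FDR 0.181), with 4 of 5 training hearts below all sedentary hearts. The library kit marks the strand, and the counts on the strand opposite to Hand2 were 22 to 65 per heart, against 1235 to 1942 on its own strand.

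Hand1, the HAND factor of the first heart field and left ventricle of the embryo (ENSMUSG00000037335, chromosome 11, 57719531 to 57723644, minus strand), had 7 counts in all 10 hearts together. Those were 5 counts in training and 2 in sedentary hearts, with 5 hearts at 0 and at most 3 counts in a heart. Each of these is at or under the limit of 3 counts that a count of 0 allows, 0.0761 to 0.102 CPM by library, so no fold change is given. Of the HAND pair, these adult hearts therefore held measurable RNA of Hand2 alone at this depth.

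**Figure D2:**
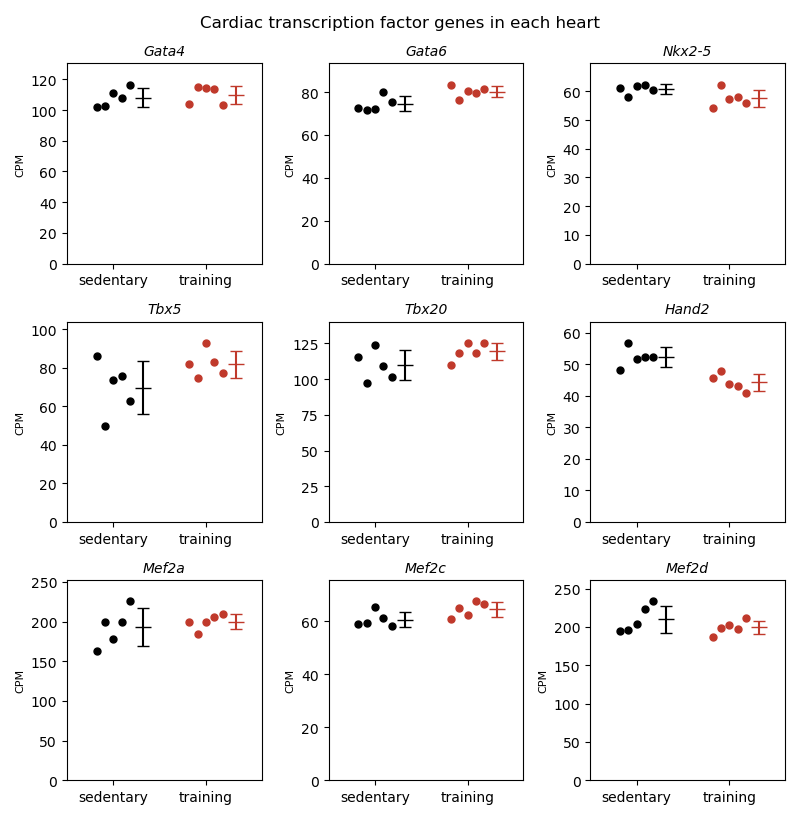
CPM of the 9 tested factors in each heart (points, black for sedentary and red for training), with the mean and SD of each group of 5 hearts (bars beside the points); the axes start at 0. The groups are apart only for Hand2, at 41.0 to 48.0 CPM in training and 48.1 to 56.7 CPM in sedentary hearts, and Tbx5 is spread from 50.1 to 86.2 CPM in sedentary hearts.

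The GATA factors lay close together between groups. Gata6 (ENSMUSG00000005836, chromosome 18, 11051565 to 11086995, plus strand) was at 83.4, 76.1, 80.4, 79.7 and 81.6 CPM in training hearts 1 to 5 and at 72.8, 71.9, 72.0, 80.2 and 75.5 CPM in sedentary hearts 1 to 5. All 5 training hearts were above the sedentary median and 3 were above every sedentary heart, with sedentary heart 4 inside the training range. The log2 fold change was 0.11 (standard error 0.042, 95% interval 0.018 to 0.20), and the edgeR quasi-likelihood FDR was 0.172. Scaled by library totals alone, which moved the median of all genes to 0.053, Gata6 was at 0.16 (edgeR quasi-likelihood FDR 0.0440). That scaling called 1029 genes higher and 339 lower over all genes. In the deposited TPM, which also carry no composition factor, Gata6 was 26.63 to 29.22 in training and 22.87 to 25.59 in sedentary hearts, so the groups were apart on that scale and not in CPM. The share of all genes apart in TPM was not taken, so this is a description only.

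Gata4 (ENSMUSG00000021944, chromosome 14, 63436362 to 63509141, minus strand), the GATA factor best known for hypertrophic growth, was at 104, 115, 114, 113 and 103 CPM in training and at 102, 102, 111, 108 and 116 CPM in sedentary hearts 1 to 5. The groups covered almost the same range, at 110.0 ± 5.85 and 108 ± 6.13 CPM (SD, n = 5 each). Its log2 fold change was 0.03 with a 95% interval of −0.08 to 0.13 (edgeR quasi-likelihood FDR 0.814). Gata6os, the noncoding gene on the opposite strand at the start of Gata6, was at 13.2 ± 0.720 and 14.1 ± 1.54 CPM (log2 fold change −0.09, edgeR quasi-likelihood FDR 0.522).

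Nkx2-5 (ENSMUSG00000015579, chromosome 17, 27057638 to 27063983, minus strand), the homeodomain factor of working and conducting myocardium, was at 54.1, 62.3, 57.5, 57.9 and 56.1 CPM in training and at 61.3, 58.0, 62.0, 62.2 and 60.3 CPM in sedentary hearts 1 to 5. Training hearts 1, 3, 4 and 5 were below every sedentary heart, whereas training heart 2 was above all of them. The means of 57.6 ± 3.01 and 60.8 ± 1.69 CPM (SD, n = 5 each) gave a log2 fold change of −0.08 (95% interval −0.17 to 0.015, edgeR quasi-likelihood FDR 0.338).

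Tbx5 (ENSMUSG00000018263, chromosome 5, 119970733 to 120023284, plus strand), the T-box factor of the atria and conduction system, was at 81.9, 74.5, 92.9, 82.9 and 77.2 CPM in training and at 86.2, 50.1, 73.7, 75.7 and 62.8 CPM in sedentary hearts 1 to 5. All 5 training hearts were above the sedentary median and 1 above every sedentary heart, and sedentary hearts 2 and 5, the lowest in atrial markers, were also the lowest in Tbx5. The log2 fold change of 0.23 had the widest interval of the set, −0.011 to 0.48 (standard error 0.11, edgeR quasi-likelihood FDR 0.271). With the atrial score as a covariate it was −0.08 (edgeR quasi-likelihood FDR 0.651), and without sedentary hearts 2 and 5 it was 0.065 (edgeR quasi-likelihood FDR 0.722). Without sedentary heart 1 alone, the sedentary heart highest in atrial markers, it was 0.32 (edgeR quasi-likelihood FDR 0.0916). That fit called 655 genes higher and 835 lower over all genes.

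Tbx20 (ENSMUSG00000031965, chromosome 9, 24629434 to 24685599, minus strand), the T-box factor of the chamber myocardium and valves, was at 110.2, 119, 125, 118 and 125 CPM in training and at 116, 97.5, 124, 109 and 102 CPM in sedentary hearts 1 to 5. Again all 5 training hearts were above the sedentary median, 2 were above every sedentary heart, and sedentary hearts 2 and 5 were the lowest. The log2 fold change was 0.12 (standard error 0.062, 95% interval −0.0090 to 0.26, edgeR quasi-likelihood FDR 0.284). It was 0.022 with the atrial score as a covariate (edgeR quasi-likelihood FDR 0.938) and 0.043 without sedentary hearts 2 and 5 (edgeR quasi-likelihood FDR 0.763). The summed markers of endocardium and valve were at 215 to 240.3 CPM in training and 173 to 213 CPM in sedentary hearts, all 7 above 0 in log2 fold change and Cytl1 called higher, and their part in the Tbx20 values was not tested.

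**Figure D3:**
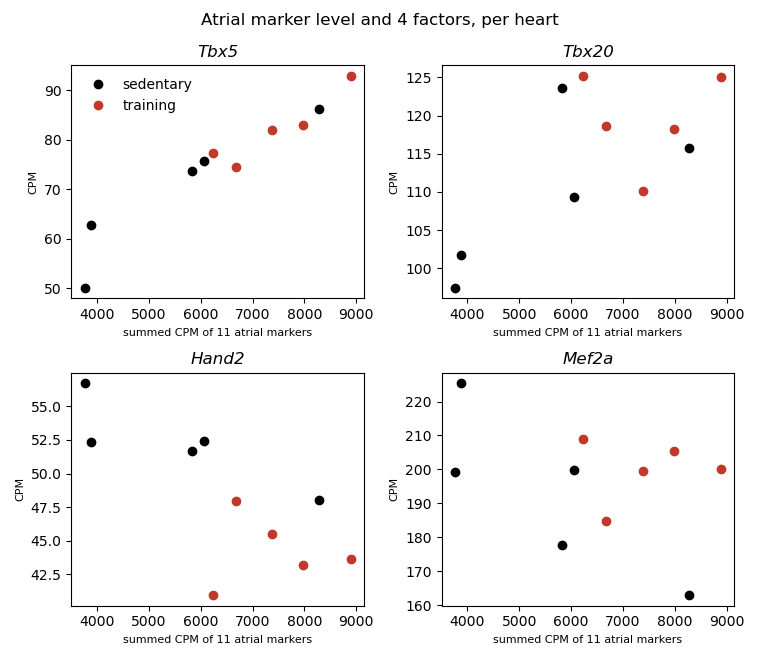
CPM of Tbx5, Tbx20, Hand2 and Mef2a in each heart against the summed CPM of 11 atrial markers in that heart (black sedentary, red training; the axes do not start at 0). Sedentary hearts 2 and 5, at 3758 and 3877 CPM of atrial markers, hold the lowest Tbx5 and Tbx20, and sedentary heart 2 the highest Hand2. In Hand2, sedentary heart 5 (52.4 CPM) is level with sedentary heart 4 (52.4 CPM), which is at 6060 CPM of atrial markers.

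The MEF2 factors are the main targets of calcium and kinase signaling in the muscle nucleus, where class II histone deacetylases hold them in check. Mef2a (ENSMUSG00000030557, chromosome 7, 66880911 to 67022606, minus strand) was at 199.7, 185, 200.1, 205 and 209 CPM in training and at 163, 199, 178, 199.9 and 225 CPM in sedentary hearts 1 to 5. The training hearts lay inside the wider sedentary range. Its log2 fold change was 0.05 (95% interval −0.11 to 0.20, edgeR quasi-likelihood FDR 0.757), and without sedentary heart 1 it was −0.0058 (edgeR quasi-likelihood FDR 0.971). It was 0.19 with the atrial score as a covariate (edgeR quasi-likelihood FDR 0.362) and 0.15 without sedentary hearts 2 and 5 (edgeR quasi-likelihood FDR 0.304).

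Mef2c (ENSMUSG00000005583, chromosome 13, 83652064 to 83815555, plus strand), the MEF2 gene that is needed for the looping heart tube, was at 60.9, 65.1, 62.2, 67.4 and 66.5 CPM in training and at 58.8, 59.5, 65.3, 61.3 and 58.0 CPM in sedentary hearts 1 to 5. All 5 training hearts were above the sedentary median, 2 were above every sedentary heart, and sedentary heart 3 was inside the training range. The log2 fold change was 0.09 (standard error 0.045, 95% interval −0.0069 to 0.18, edgeR quasi-likelihood FDR 0.286).

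Mef2d (ENSMUSG00000001419, chromosome 3, 88049185 to 88079398, plus strand) was at 187, 198, 202, 198 and 212 CPM in training and at 194, 196, 203, 223 and 233 CPM in sedentary hearts 1 to 5. The groups overlapped, with sedentary hearts 4 and 5 above all training hearts and training heart 1 below all sedentary hearts. The log2 fold change was −0.07 (95% interval −0.19 to 0.044, edgeR quasi-likelihood FDR 0.492).

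Whether related factors shifted against each other was tested by the ratio of their length-normalized counts within each heart, which no library scaling can move. The 5 pairs that could be formed were tested by exact two-sided permutation over all ways to assign the hearts to the groups. The Mef2d/Mef2c ratio was 3.43, 3.41, 3.64, 3.29 and 3.56 in training hearts 1 to 5 and 3.70, 3.69, 3.49, 4.07 and 4.50 in sedentary hearts 1 to 5. It was lower in training on average, with 3 training hearts below every sedentary heart, and the log2 difference was −0.16 (standard error 0.070, exact permutation p = 0.0397, 0.179 after adjustment over the 5 pairs). The Mef2a/Mef2d ratio was 0.690 to 0.791 in training and 0.619 to 0.752 in sedentary hearts, a log2 difference of 0.13 (standard error 0.061, exact permutation p = 0.0714, adjusted 0.179). Mef2a/Mef2c differed by −0.03 (exact permutation p = 0.754, adjusted 0.754), Gata6/Gata4 by 0.08 (exact permutation p = 0.238, adjusted 0.327) and Tbx5/Tbx20 by 0.12 (exact permutation p = 0.262, adjusted 0.327). When 1 heart was left out, Gata6/Gata4 ranged from 0.047 (without training heart 1) to 0.12 and Tbx5/Tbx20 from 0.053 (without sedentary heart 2) to 0.19 (without sedentary heart 1). With all 10 hearts no pair passed the threshold after adjustment, and Hand2/Hand1 could not be formed because Hand1 was at 0 in 5 hearts.

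**Figure D4:**
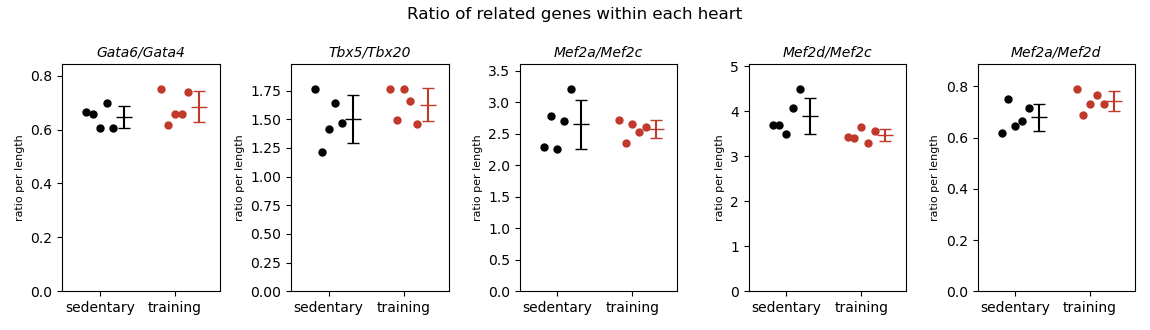
Ratio of length-normalized counts of related factors in each heart (points), with the arithmetic mean and SD per group of 5 hearts (bars beside the points); the axes start at 0. The Mef2d/Mef2c ratio is 3.29 to 3.64 in training and 3.49 to 4.50 in sedentary hearts, the pair furthest apart, and all 5 pairs overlap.

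Levels between genes can be compared only per length, for which the TPM that the authors deposited were used. Averaged over the 10 hearts, Mef2d was the highest of the set at 59.3 ± 5.83 TPM (SD, n = 10), followed by Nkx2-5 at 42.5 ± 2.61, Mef2a at 41.6 ± 3.95 and Gata4 at 39.3 ± 2.93 TPM. Below a gap came Gata6 at 26.0 ± 2.11, Tbx5 at 22.4 ± 4.12 and Hand2 at 22.0 ± 1.597 TPM. Mef2c at 15.9 ± 1.42 and Tbx20 at 14.6 ± 1.59 TPM were the lowest apart from Hand1, which averaged 0.012 TPM. Neighbours in this order whose ranges did not overlap were Mef2d and Nkx2-5, Gata4 and Gata6, Hand2 and Mef2c, and Tbx20 and Hand1, each in the same order in 10 of 10 hearts. Nkx2-5 was above Mef2a in only 5 of 10 hearts and Mef2a above Gata4 in 7, so these 3 were not told apart. Gata6 was above Tbx5 in 8 hearts, Tbx5 above Hand2 in 6 and Mef2c above Tbx20 in 9, with overlapping ranges. Between 72.1% (Tbx20) and 92.3% (Mef2d) of all tested genes had a lower TPM than these factors.

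**Figure D5:**
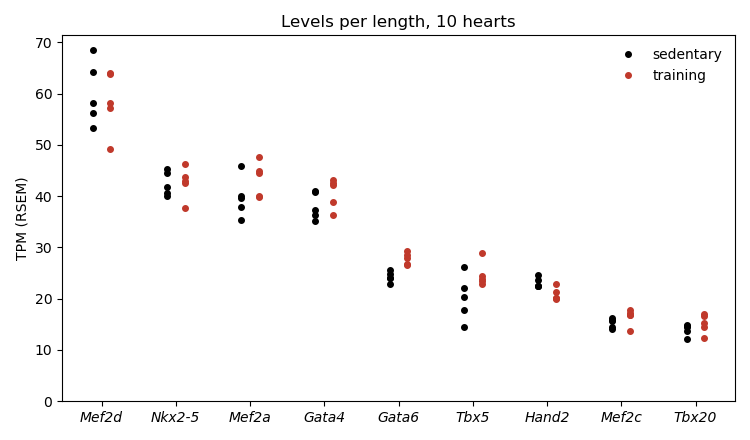
Deposited RSEM TPM of the 9 tested factors in each of the 10 hearts (points, black for sedentary and red for training), in order of the mean over all hearts. The order runs from 59.3 TPM for Mef2d to 14.6 TPM for Tbx20, and of the 9 factors only Gata6 has groups apart on this scale. The share of all genes apart in TPM was not taken.

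Within families the shares of TPM were steady. Mef2d made up 49.4 ± 1.48% of the summed TPM of Mef2a, Mef2c and Mef2d in training and 52.1 ± 2.10% in sedentary hearts, Mef2a 36.7 ± 1.59% and 34.5 ± 1.61%, and Mef2c 13.9 ± 0.806% and 13.4 ± 1.68% (SD, n = 5 each). Gata4 made up 59.3 ± 1.87% of the GATA pair in training and 61.1 ± 1.89% in sedentary hearts. Tbx5 made up 62.0 ± 2.41% of the T-box pair in training and 58.6 ± 3.92% in sedentary hearts. These shares were not tested apart from the ratios above.

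Around the 10 factors stood a list of 26 other genes, transcription factors of heart development such as Gata5, Tbx3, Irx4, Hey2 and Isl1, and Smyd1, which is not a transcription factor of this kind. Of these 21 were tested, 0 were called higher and 2 lower, beside 2.75% higher and 4.26% lower over all tested genes, with a median log2 fold change of 0.017 and 12 above 0 and 9 below. Nkx2-6 and Mesp1 had no counts, and Isl1, Irx6 and Mef2b had at most 15, 2 and 11 counts in a heart. Smyd1, a histone methyltransferase of muscle that partners with such factors, was at 525 ± 18.1 CPM in training and 585 ± 27.2 CPM in sedentary hearts, with 4 of 5 training hearts below all sedentary hearts (log2 fold change −0.16, edgeR quasi-likelihood FDR 0.0653). Irx3, an Iroquois factor of the fast conduction fibers, was at 37.6 ± 4.35 and 44.5 ± 3.43 CPM, also with 4 of 5 training hearts below (log2 fold change −0.25, edgeR quasi-likelihood FDR 0.0957). In the fits that left out 1 heart this list had between 0 and 5 called genes, with the 5 (Irx3, Nr2f2, Shox2, Smyd1 and Tbx18) without sedentary heart 1 and none without training hearts 3, 4 or 5 or without sedentary hearts 2, 3, 4 or 5.

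Of 33 cofactors and upstream regulators, all tested, 0 were called higher and 1 lower, which is near the share of 4.26% lower over all tested genes, with 14 above 0 and 19 below and a median of −0.012. The list held the GATA partners Zfpm1 and Zfpm2, the acetyltransferases Ep300 and Crebbp, the MEF2 repressors Hdac4, Hdac5, Hdac7 and Hdac9, and calcineurin and NFAT genes. The called gene was Mrtfb, a myocardin-related coactivator of SRF, at 45.8, 46.5, 48.3, 48.0 and 46.8 CPM in training and 50.9, 49.9, 51.6, 59.3 and 52.1 CPM in sedentary hearts. All training hearts were below all sedentary hearts, with a log2 fold change of −0.16 (edgeR quasi-likelihood FDR 0.0788). The call was lost in 8 of the 10 fits that left out 1 heart, at log2 fold changes between −0.18 and −0.12 over the 10, and with the atrial score as a covariate, at −0.20 (edgeR quasi-likelihood FDR 0.232).

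Of 31 target genes of the factors, all tested, 2 were called higher and 6 lower, beside 2.75% higher and 4.26% lower over all tested genes, with 7 above 0 and 24 below and a median of −0.11. Most of the cardiomyocyte markers above are also in this list, the called Actc1 and Ckm among them. The fall of those markers and that of the targets are therefore not separate results. Myh7, the β-myosin heavy chain, rose from 109.6 ± 25.4 CPM in sedentary to 252.05 ± 74.7 CPM in training hearts (log2 fold change 1.20, standard error 0.18, edgeR quasi-likelihood FDR 0.00871). Training heart 2, at 383 CPM, was the highest, and all 5 training hearts were above the highest sedentary heart at 136 CPM. These CPM hold reads on the strand of Myh7 alone. Counts of both strands together also take in reads on the opposite strand, and with them the log2 fold change was 0.38 (edgeR quasi-likelihood FDR 0.0312). Gja1, which encodes connexin 43, rose from 215 ± 23.3 to 279 ± 24.5 CPM (log2 fold change 0.38, edgeR quasi-likelihood FDR 0.0223). Of the 6 lower genes, Actc1, cardiac α-actin, fell by 0.38 on the log2 scale from 10470 ± 858 to 8022 ± 849 CPM (edgeR quasi-likelihood FDR 0.0220), and Tnnc1, cardiac troponin C, fell by 0.26 (edgeR quasi-likelihood FDR 0.0406). Nexn, a Z-disc protein, fell by 0.20 (edgeR quasi-likelihood FDR 0.0232), Ckm, muscle creatine kinase, by 0.22 (edgeR quasi-likelihood FDR 0.0282) and Casq2, the calcium buffer calsequestrin, by 0.22 (edgeR quasi-likelihood FDR 0.0305). With the atrial score as a covariate Myh7 was the only called gene of the list, although the log2 fold changes of Gja1 (0.41), Casq2 (−0.22) and Tnnc1 (−0.23) stayed about as large, and those of Actc1 (−0.30), Nexn (−0.16) and Ckm (−0.15) kept their direction. In the same list the genes called without sedentary hearts 2 and 5 were Myh7, Gja1 and Casq2.

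The genes whose levels varied most like each factor, after the group means were removed, were picked by Pearson's r over the 10 hearts among 10240 genes of at least 5 CPM. They are a description, since each is the highest of many, and all genes were measured in the same 10 libraries, which differ in atrial content. Tbx5 varied most like Cracd (r = 0.988), Mybphl (0.981) and Tbc1d1 (0.971). Hand2 varied most like Kdm4c (0.961), Prmt2 (0.939) and Mcu (0.939), and Nkx2-5 like Lmna (0.949), Inpp5j (0.916) and Snap91 (0.916). Gata4 was nearest to Atg7 (0.945), Vat1 (0.942) and Sec23b (0.920), Gata6 to Max (0.976), Rab10os (0.965) and Hlf (0.946), and Tbx20 to Rnf149 (0.929), Adgrd1 (0.914) and Zeb2 (0.910). The MEF2 genes differed in their nearest genes. They were Rnf2 (0.987), Cobll1 (0.970) and Rragc (0.954) for Mef2a, Ice1 (0.962), Nudt12 (0.927) and Utp14a (0.914) for Mef2c, and Atxn7 (0.974), Pcif1 (0.974) and Sertad2 (0.965) for Mef2d. None of these genes was itself one of the 10 factors.

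The annotation holds 21 genes that overlap one of the 10 factors or start within 2 kb of its start, 15 of them on the opposite strand. Of these 12 were in the count tables, 8 were tested and 0 were called by edgeR's quasi-likelihood test, beside 7.01% over all tested genes. Hand2os1 and Gm34030 had an unadjusted p below 0.05, and 2 of 8 is near the 20% of all tested genes that did. Gm43050, opposite the start of Tbx5, was at 7.08 ± 0.165 CPM in training and 6.37 ± 0.718 CPM in sedentary hearts (log2 fold change 0.15, edgeR quasi-likelihood FDR 0.315). Gm49390, opposite Gata4, differed by 0.05 (edgeR quasi-likelihood FDR 0.7996) and Lysmd4, a protein-coding gene opposite Mef2a, by −0.00052 (edgeR quasi-likelihood FDR 0.996). Gm44667, inside Mef2a, differed by 0.13 (edgeR quasi-likelihood FDR 0.832) and 1700113A16Rik, opposite Mef2d, by −0.34 (edgeR quasi-likelihood FDR 0.538). Gm29824 near Tbx20, Gm44668 inside Mef2a, Gm55122 opposite Mef2c and Gm56779 opposite Mef2d were too low to be tested.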

How the data were processed

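The authors aligned the reads of each heart to GRCm39 with STAR 2.7.10a and deposited the raw count of reads with a single hit on each gene, per strand and for both strands together, with no scaling or filter. They also deposited RSEM 1.3.3 expected counts, TPM values (scaled per effective length within each heart) and effective lengths in bases. Reverse-strand counts were used, since the kit is directional. Lines that name no gene (multimapping reads 17.9% to 19.2% of all reads, reads on no feature 4.15% to 4.89%) stayed out of library sizes.

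In R 4.3.3, edgeR 4.0.16 was run on all genes with filterByExpr, TMM factors and the quasi-likelihood F test, with Benjamini-Hochberg adjustment over all 15454 tested genes and calls at an FDR below 0.1. Standard errors were taken from the fold change and its F statistic. Expected counts were rounded to whole numbers for the alternatives. The steps were tested on simulated data. Alternatives were DESeq2 1.42.0, other size factors, filters and counts, thinned counts, an atrial score, the mouse number as a block, and each heart left out. The fits without sedentary hearts 2 and 5, and DESeq2 without a filter, were chosen after seeing the data.

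Of the identifiers, 56017 of 56748 matched GENCODE M39, whose canonical transcript starts gave the promoter windows. The p-values measure the spread between hearts, and depth limits cover counting error only. The 10 factors, the lists of 26 other factors (Smyd1 counted among them), 33 cofactors and regulators and 31 target genes, and the cell type markers were chosen with earlier results of these data known. Named were all 10 factors, up to 5 called genes per list and direction by smallest p, the 3 genes that vary most like each factor, and neighbours within 2 kb. Data of voluntary running were not analysed here. Some genes and 1 promoter window are not reported here.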

Additional observations from a re-analysis of the deposited data

Results flagged for a closer look

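In 44 groups of 5 hearts, the 9 tested factors and their neighbours among them, 1 held a heart that stood apart from the other 4 by Dixon's test. Gm34030, the noncoding gene opposite the end of Hand2, was at 5.55 CPM in sedentary heart 4 and at 4.50 to 4.77 CPM in the other sedentary hearts. Chance flags about 1 group in 20.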

How the results depend on the processing

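Hand2 was called under every alternative other than the atrial score as a covariate (log2 fold change −0.16, edgeR quasi-likelihood FDR 0.330) and leaving out sedentary hearts 2 and 5 (−0.19, edgeR quasi-likelihood FDR 0.152), and its direction held in all. The number of called factors was 2 with library totals alone (Gata6 and Hand2), 0 under each of those 2 atrial settings, and 1 to 2 when 1 heart was left out, with 2 (Tbx5 and Hand2) without sedentary heart 1. Tbx5 turned to −0.078 with the atrial score. Mef2a ranged from −0.0058 (without sedentary heart 1) to 0.11 when 1 heart was left out, and was 0.19 with the atrial score and 0.15 without sedentary hearts 2 and 5. Tbx20 was 0.022 and 0.043 under those settings.

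The list of other cardiac factors had 0 calls with library totals alone, the atrial score, without sedentary hearts 2 and 5 or at an FDR below 0.05, 1 with RSEM expected counts and with counts of both strands, and 0 to 5 when 1 heart was left out. Cofactors had 3 with library totals alone (none of them Mrtfb), 2 with no filter, 0 under the atrial settings and at the FDR below 0.05, and 0 to 2 when 1 heart was left out. Those 3 had log2 fold changes above 0 in the main fit, and library totals alone moved the median of all genes to 0.053. Target genes had 13 with DESeq2 and with DESeq2 on RSEM expected counts, 1 with the atrial score, 3 without sedentary hearts 2 and 5, and 6 to 15 when 1 heart was left out, with 15 without sedentary heart 1. Calls over all genes moved here as well, to 617 higher and 856 lower with DESeq2 and to 188 higher and 352 lower without training heart 3. Of 23 alternatives, Smyd1 kept its call under 12, Irx3 under 10 and Mrtfb under 12. The cause of these shifts was not tested. Depth limited Hand1, at no more than 3 counts in a heart.

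With 1 heart left out, the Mef2d/Mef2c ratio differed by −0.20 to −0.11, Mef2a/Mef2d by 0.097 to 0.17 and Mef2a/Mef2c by −0.087 to 0.041, the last above 0 without sedentary heart 5. Gata6/Gata4 differed by 0.047 to 0.12 and Tbx5/Tbx20 by 0.053 to 0.19. Mef2d/Mef2c passed an adjusted threshold of 0.1 without sedentary heart 2 or 3, and Mef2a/Mef2d without sedentary heart 2. TPM rebuilt from reverse-strand counts were higher for every factor and kept the order, at 94.7 for Mef2d, 67.5 for Nkx2-5, 65.7 for Mef2a, 62.0 for Gata4, 41.3 for Gata6, 36.1 for Tbx5, 34.7 for Hand2, 25.3 for Mef2c and 23.0 for Tbx20.

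A pairing of the hearts by the mouse numbers of the labels was not established. Same-numbered hearts deviated from their group means with correlations of −0.097, 0.16, 0.075, 0.024 and 0.16, and differently numbered hearts were not compared. With the number as a block, Hand2 was at −0.24 (edgeR quasi-likelihood FDR 0.0311) and the only called factor, cofactors had 2 calls (Mrtfb and Rcan1), Smyd1 missed the threshold (edgeR quasi-likelihood FDR 0.119), and 468 genes were higher and 669 lower in all.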

Other observations

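Markers of the remaining cell types were measured in the same hearts. Endothelial markers (Pecam1, Cdh5, Kdr and others) summed to 1435 to 1554 CPM in training and 1600 to 1639 CPM in sedentary hearts, so the sums did not overlap. Of the 9 markers 4 had a log2 fold change above 0 and 5 below, and Fabp4 and Tie1 were called lower. Smooth muscle and pericyte markers summed to 1292 to 1464 and 1314 to 1514 CPM, with Tagln called higher and Rgs5 lower. Macrophage markers, at 259 to 312 and 266 to 325 CPM, epicardial markers, at 92.7 to 134 and 71.4 to 127 CPM, and Schwann cell markers, at 17.2 to 21.5 and 15.8 to 19.8 CPM, overlapped between the groups and held no called gene. Adipocyte markers ran from 19.8 to 172 CPM in training and from 17.3 to 134 CPM in sedentary hearts, and their 5 tested genes missed the threshold. Skeletal muscle markers summed to 2.22 to 4.30 and 2.63 to 4.52 CPM, with the fast myosin genes Myh1, Myh2 and Myh4 too low to be tested. The part of these cells in the values of the factors was not tested.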
